A study of Mus musculus with 13 samples.

Results

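Pappa and the insulin-like growth factor (IGF) axis were followed across normal and tumor mammary organoids of the mouse, each grown in Matrigel or in collagen I. The 10 genes are Pappa, the ligands Igf1 and Igf2, the receptor gene Igf1r and the binding protein genes Igfbp2 to Igfbp7, of 28784 genes that the array names. They were taken by the gene name printed beside each probe in the scanner files, or by its synonym, which gave 20 probes, 2 of them (both of Igf1r) through a synonym. Of these, 17 probes passed the filter on dim signal, and all 10 genes were left with at least 1 probe. Pappa was selected on its difference between the gels in tumor organoids, which earlier results of these data had shown, so every Pappa value that rests on tumor arrays is given as a description with no test. The other 9 genes belong to the axis by function.

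Normal organoids came from mammary glands of FVB mice, of an age that the labels leave out. Tumor organoids came from the largest tumor of MMTV-PyMT mice aged 12 to 16 weeks, in which the mouse mammary tumor virus promoter drives the polyoma middle T antigen, an age at which the labels place poorly differentiated carcinoma. Organoids freed by collagenase and trypsin were embedded in Matrigel, a basement membrane extract, or in 3 mg/ml rat-tail collagen I, and were kept for 4 days in DMEM/F12 with 1% insulin-transferrin supplement and 2.5 nM FGF2. The medium of all 4 groups thus held insulin. Each group had 3 arrays from 3 mice: tumor mice A, B and C in each gel, normal mice A, B and D in Matrigel, and normal mice A, B and C in collagen I. Inside a tissue a letter stands for 1 animal, so arrays that share it are paired across gels; the letters do not link tumor to normal mice.

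IGF1 and IGF2 are secreted growth factors that signal through the IGF1 receptor to the PI3K-AKT and MAPK pathways. In tissue fluid they are held by high-affinity binding proteins, IGFBP1 to IGFBP6, which keep the ligand from the receptor and prolong its life. IGFBP7 binds IGF weakly. PAPP-A, pregnancy-associated plasma protein A, is a secreted metalloprotease that cleaves IGFBP4, and also IGFBP2 and IGFBP5, and so frees the bound ligand close to the cell surface. Stanniocalcins block PAPP-A. In the mammary gland IGF1 comes mainly from the stroma, and the receptor is on the epithelium.

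A level here is the log2 of Agilent's processed signal minus the log2 of that array's 75th percentile, so 0 is the 75th percentile of the array and 1 unit is a doubling. Levels of different probes are not comparable, since each probe binds with its own strength. Differences were tested with limma over 18272 genes, with p-values adjusted by Benjamini-Hochberg over all of them and a threshold of 0.05. The 3 tumor Matrigel arrays were the dimmest, with a 75th percentile of 383 to 570 against 670.9 to 1216 on the other 9, and between 56.6% and 71.4% of spots lay well above background.

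The array measures each gene through strands of 60 bases. Those of Pappa and Igf1 on which the results turn, and a second probe each of Igfbp3 and Igfbp4, are shown so that it can be seen which stretch of the transcript a value reports. Each can be read without a stop codon in at least 1 frame. Positions are in build mm7 (NCBI35), per the file headers.
Pappa: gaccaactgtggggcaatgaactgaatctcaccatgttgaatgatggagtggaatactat
Igf1: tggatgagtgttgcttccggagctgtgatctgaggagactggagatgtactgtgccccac
Igfbp3: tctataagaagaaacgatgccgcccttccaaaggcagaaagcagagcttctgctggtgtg
Igfbp4: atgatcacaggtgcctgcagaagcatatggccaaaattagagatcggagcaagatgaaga
The Pappa probe lies at chr4:64785567-64785626 on the plus strand. The Igf1 probe lies at chr10:87471884-87471943 on the plus strand. The Igfbp3 probe is on the minus strand, and its 60 bases stretch over 1010 bases of genome, chr11:7160474-7161483, so the stretch is interrupted in the genome. The Igfbp4 probe lies at chr11:99157316-99157375 on the plus strand.

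Pappa was lowest in tumor organoids in Matrigel and highest in tumor organoids in collagen I, with the normal groups between. In normal organoids in Matrigel its level was -2.27 in mouse A, -1.42 in mouse B and -2.55 in mouse D, a mean of -2.08 ± 0.59 (SD, n = 3). In normal organoids in collagen I it was -3.06, -2.75 and -2.97 in mice A, B and C, a mean of -2.93 ± 0.16. Tumor organoids in Matrigel gave -6.10, -4.77 and -4.70 in mice A, B and C, a mean of -5.19 ± 0.79, and the probe was not well above background in mouse A. The same 3 tumors in collagen I gave -2.14, -0.77 and -1.60, a mean of -1.50 ± 0.69. No 2 groups that share a tissue or a gel overlapped. All 3 tumor collagen I arrays lay above all 3 tumor Matrigel arrays.

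**Figure D1:**
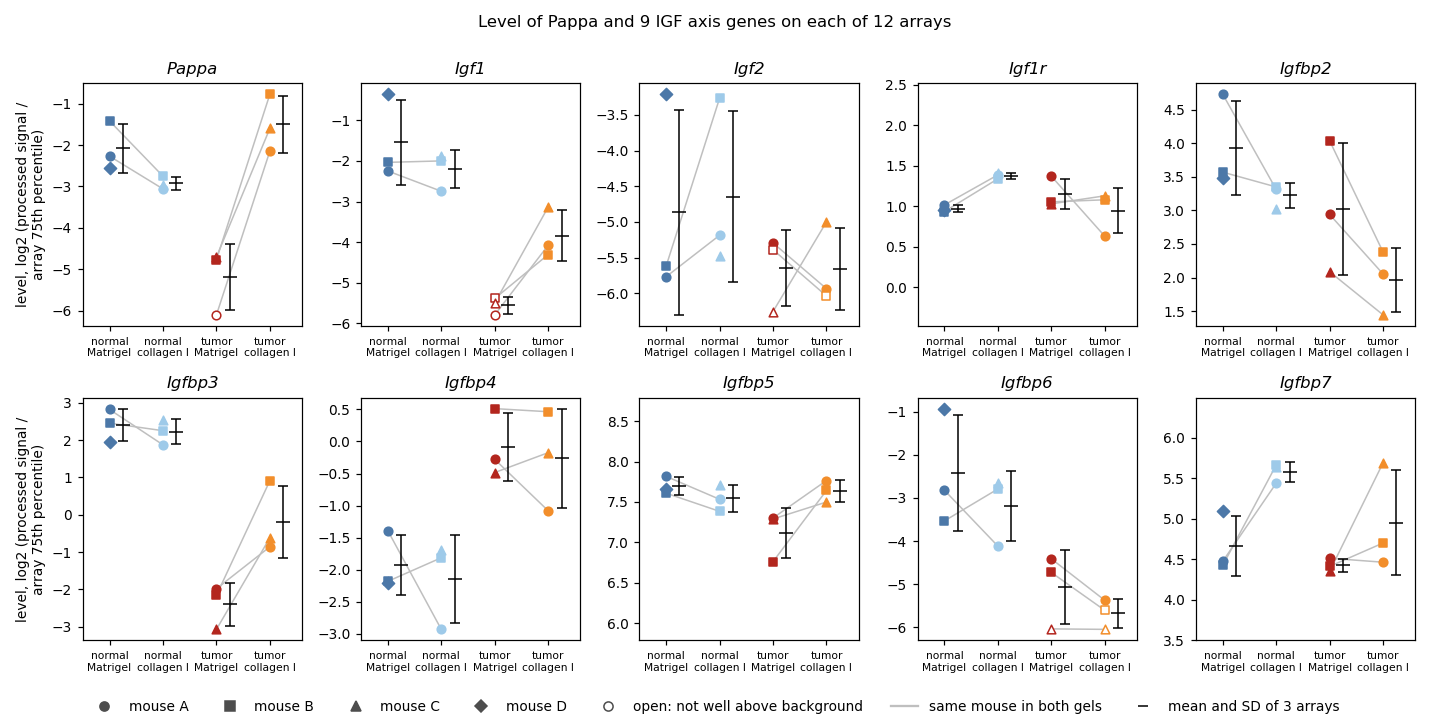
Level (log2 of processed signal over the array's 75th percentile) of the 10 genes on 12 arrays, by group; point shapes are mice, open points were not well above background, grey lines join a mouse's gels, and black bars are the mean and SD of 3 arrays. Pappa runs from -6.10 in tumor Matrigel A to -0.77 in tumor collagen I B.

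In each tumor Pappa was higher in collagen I than in Matrigel, by 3.96 in mouse A, 3.99 in mouse B and 3.11 in mouse C. The fitted difference was 3.69 ± 0.45 (SE), or 12.9-fold. In the 2 normal mice with arrays in both gels the difference ran the other way, -0.79 in mouse A and -1.33 in mouse B. The fitted normal difference was -0.85 ± 0.45, which did not pass the test (limma adjusted p = 0.634). Between tissues, Pappa was lower in tumor than in normal organoids in Matrigel, by -3.11 ± 0.45, and higher in collagen I, by 1.42 ± 0.45. The tumor gel difference minus the normal one was 4.53 ± 0.63.

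The size of the tumor difference depends on how background was treated. With normexp background correction, which adds an offset of 50 to every signal before scaling, the tumor difference was 0.89 and the tumor minus normal difference in Matrigel was -0.37, while the authors' deposited log2 values gave 3.23 and -2.62. The tumor gel difference minus the normal one was 1.57 with normexp and 2.26 with normexp and quantile normalization. Within slide 8, the only slide with a tumor array of each gel, the difference was 2.56. A second Pappa probe, 3' of the first, was well above background on 2 of 12 arrays, normal Matrigel B at -6.03 and tumor collagen I B at -4.88, and did not enter the fit. Those are also the arrays with the highest level of the first probe in their tissue.

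Across the axis, most tests that passed were between tissues. Between the gels in tumors, Igf1 and Igfbp3 of the 9 genes other than Pappa passed, both higher in collagen I, where 27.9% of all genes passed and 15.8% passed as higher. In normal organoids 0 of 10 passed by limma, where 0.0438% of all genes did. At an unadjusted p under 0.05, 2 of the 10, Igf1r and Igfbp7, were higher in collagen I, and 1657 of all genes passed. In Matrigel, 5 of the 9 differed between tumor and normal organoids, 4 of them lower in tumor (Igf1, Igfbp3, Igfbp5, Igfbp6) and 1 higher (Igfbp4). There 51.6% of all genes passed, 25.9% lower and 25.7% higher. In collagen I, 3 of the 9 differed (Igfbp3 and Igfbp6 lower in tumor, Igfbp4 higher), against 8.64% of all genes. Both tissue counts include Igfbp6, which passed the filter on dim signal only through the normal groups, where it is high. The difference of the gel effects between the tissues passed for 0 of the 9 by limma, where 2.63% of all genes passed. There 4 of the 9, Igf1, Igf1r, Igfbp3 and Igfbp5, had an unadjusted p under 0.05, as had 4771 of all 18272 genes. The median difference over the 10, Pappa included as a description, was 0.25 for the gels in tumors, -0.20 for the gels in normal organoids, -0.84 between tissues in Matrigel and -0.82 in collagen I. The same medians over all genes were -0.04, -0.01, 0.08 and 0.05.

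The 12 arrays lay on 7 slides, 4 of which held more than 1 group, so the differences were also read within a slide. On slide 4, with 1 tumor and 1 normal array in Matrigel, the tumor minus normal difference was -2.21 for Pappa, -4.11 for Igfbp3, 2.73 for Igfbp4, -0.90 for Igfbp5 and -3.80 for Igfbp6. On slide 6, in collagen I, it was -2.87 for Igfbp3, 1.64 for Igfbp4 and -3.25 for Igfbp6. On slide 8, in tumors, collagen I minus Matrigel was 2.21 for Igfbp3. These values have the sign of the fitted differences, but with slide as a fixed block 6 calls were lost: Igf1 between the gels in tumors (adjusted p = 0.178), Igfbp5 (0.0666) and Igfbp6 (0.103) between tissues in Matrigel, and Igfbp3 (0.0556), Igfbp4 (0.13) and Igfbp6 (0.318) between tissues in collagen I.

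**Figure D2:**
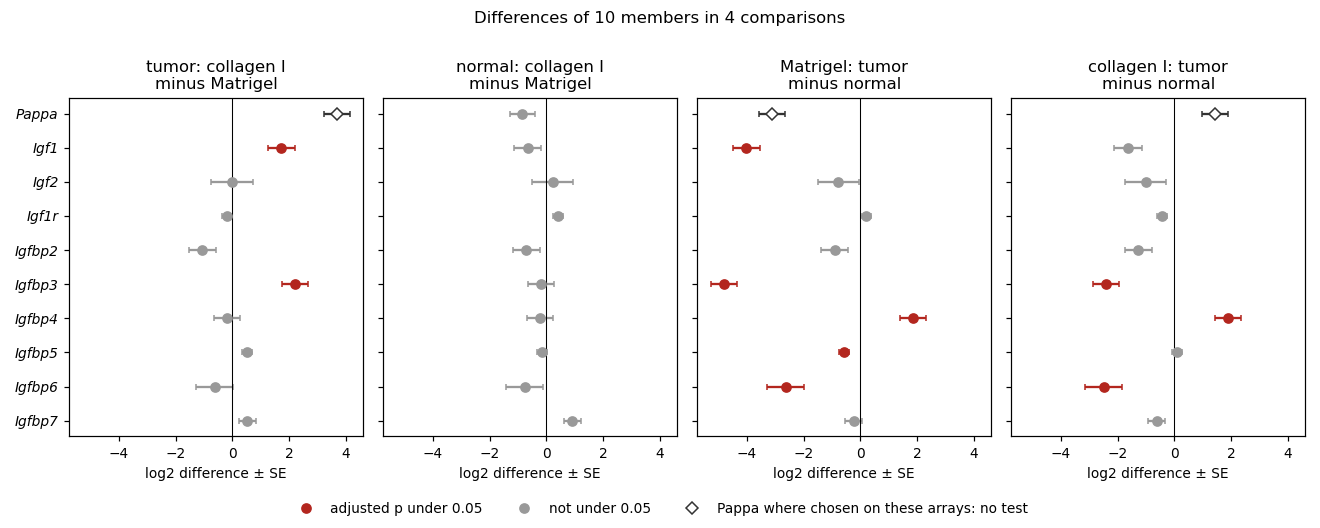
Fitted log2 differences (points) with standard errors (bars) of the 10 genes in 4 comparisons of 3 arrays against 3; red points passed an adjusted p of 0.05, grey points did not, and open diamonds are Pappa values given with no test. Igf1 and Igfbp3 are right of 0 between the gels in tumors (1.72 and 2.22) and left of 0 between tissues in Matrigel (-4.02 and -4.81), where Igf1 is read against arrays not well above background, while Igfbp4 is right of 0 between tissues in each gel (1.85 and 1.88).

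Igf1, the ligand made mainly by stromal cells, was low in tumor organoids, and within tumors it was higher in collagen I. Its levels were -2.25, -2.03 and -0.35 in normal Matrigel mice A, B and D and -2.75, -2.0 and -1.87 in normal collagen I mice A, B and C. Tumor organoids in collagen I gave -4.08, -4.31 and -3.14 in mice A, B and C. In tumor organoids in Matrigel no array had the probe well above background, at -5.79, -5.39 and -5.50. The tumor groups did not overlap each other or the normal groups, whereas the normal groups overlapped.

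Because the tumor Matrigel arrays hold only a bound, Igf1 was at least 2.70-fold higher in tumor collagen I than in tumor Matrigel (limma adjusted p = 0.0236), and at least 13.2-fold lower in tumor than in normal organoids in Matrigel (adjusted p = 0.000175). For such a bound the dim arrays were given the lowest signal that counted as well above background there, or the probe's own where that was higher. A second Igf1 probe, with 10 spots on each array, gave bounds of 1.81-fold and 13.4-fold. In all 3 tumors the collagen I array had the higher value. The gel call was lost without tumor Matrigel A (adjusted p = 0.063) or B (0.0576) and without tumor collagen I A (0.0526) or C (0.0774), and with normexp the difference was -0.54. That call was also lost with quantile normalization (1.28, adjusted p = 0.0807) and in the authors' deposited log2 values (1.29, 0.0681). The same held with array weights (1.70, 0.0768) and with normexp and quantile normalization (0.40, 0.343).

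Between tissues in collagen I the Igf1 difference was -1.64 ± 0.48 (adjusted p = 0.0613), although no array of one tissue reached the other. It passed with mouse as a random replicate block (adjusted p = 0.0476) and without normal Matrigel A (0.0488) or D (0.0127) or tumor collagen I C (0.0468). The second Igf1 probe passed on its own, at -2.26 ± 0.57 (adjusted p over probes = 0.036). The gel effect on Igf1 differed between the tissues by 2.38 ± 0.68, which did not pass (adjusted p = 0.0743), though it did with that block (0.0425) and without normal Matrigel A (0.0348). A remaining Igf1 probe, which lies upstream of the others, was well above background on 1 of 12 arrays.

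Igf2, the second ligand, showed no difference that passed in any comparison. Its level was -5.77, -5.62 and -3.21 in normal Matrigel mice A, B and D and -5.19, -3.27 and -5.48 in normal collagen I mice A, B and C. In tumors it was -5.29, -5.39 and -6.26 in Matrigel and -5.94, -6.04 and -5.0 in collagen I, and it was well above background on 1 and 2 of those 3 arrays. Single arrays, normal Matrigel D and normal collagen I B, stood well above the other arrays of their groups. The tumor minus normal difference in Matrigel was -0.78 ± 0.73 (adjusted p = 0.387). It was 0.05 without normal Matrigel D, and -1.78 with the batch 1 arrays of normal Matrigel A and B (adjusted p = 0.0299).

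Igf1r encodes the receptor tyrosine kinase that binds both ligands. Its brightest probe, which the files name by a synonym, stayed within 0.63 to 1.41 on all 12 arrays. It was 0.97 ± 0.04 in normal Matrigel, 1.38 ± 0.04 in normal collagen I, 1.15 ± 0.19 in tumor Matrigel and 0.95 ± 0.28 in tumor collagen I (SD, n = 3 each), and no comparison passed. The probe that carries the symbol Igf1r and the reference transcript was higher in tumor than in normal organoids in Matrigel, by 0.59 ± 0.23 (adjusted p over probes = 0.0476). Another probe named by a synonym gave 0.51 ± 0.15 (adjusted p over probes = 0.0158).

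The fourth Igf1r probe, which lies upstream of the other 3, behaved differently. Like the probes named by a synonym, it comes from a cDNA clone. It was -4.66, -4.01 and -3.74 in tumor Matrigel and -2.24, -2.82 and -1.71 in tumor collagen I, a difference of 1.88 ± 0.39 (adjusted p over probes = 0.00711). The other 3 Igf1r probes differed between the gels in tumors by -0.35 ± 0.23, -0.21 ± 0.18 and -0.30 ± 0.15, with adjusted p over probes of 0.266, 0.403 and 0.154. Whether this probe reports another transcript was not tested.

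**Figure D3:**
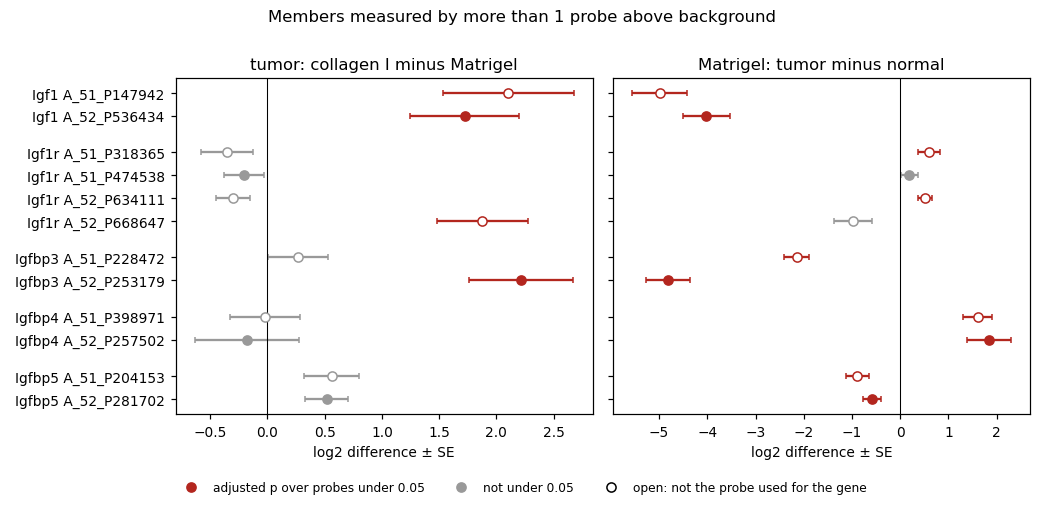
Fitted log2 differences with standard errors for each probe that passed the filter, for the 5 genes with more than 1 such probe, between the gels in tumors (left) and between tissues in Matrigel (right); red is an adjusted p over probes under 0.05, and open points were not used for the gene. The Igf1, Igfbp4 and Igfbp5 probes lie on the same side of 0 in each panel, while in the left panel 1 of 4 Igf1r probes (1.88) and 1 of 2 Igfbp3 probes (2.22) stand apart.

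Igfbp3, which encodes the main carrier of IGF in serum, was far lower in tumor than in normal organoids. Its brightest probe read 2.82, 2.45 and 1.96 in normal Matrigel mice A, B and D and 1.87, 2.25 and 2.54 in normal collagen I mice A, B and C. It read -1.98, -2.16 and -3.07 in tumor Matrigel and -0.86, 0.92 and -0.61 in tumor collagen I, mice A, B and C. The normal groups overlapped and every tumor array was below every normal array. The tumor minus normal difference was -4.81 ± 0.46 in Matrigel (limma adjusted p = 5.09e-05), a 28.1-fold lower signal. In collagen I it was -2.41 ± 0.46 (adjusted p = 0.00841), or 5.30-fold.

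Between the gels in tumors, Igfbp3 was 2.22 ± 0.46 higher in collagen I (adjusted p = 0.00726), by 1.12, 3.07 and 2.46 in mice A, B and C. The second probe, shown above, gave 0.27 ± 0.26 (adjusted p over probes = 0.463), so the gel difference rests on the brightest probe. The second probe read -4.08, -3.95 and -4.45 in tumor Matrigel and -4.09, -3.50 and -4.08 in tumor collagen I. Its tissue differences passed, at -2.15 ± 0.26 in Matrigel (adjusted p over probes = 0.000183) and -1.59 ± 0.26 in collagen I (0.00378). With normexp the gel difference of the brightest probe was 1.23 (adjusted p = 0.0717). The gel effect on Igfbp3 differed between the tissues by 2.41 ± 0.65 (adjusted p = 0.0669), and with mouse as a random replicate block by 2.46 (0.0342).

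Igfbp4, whose product is the best known substrate of PAPP-A, was the only one of the 6 binding protein genes that passed as higher in tumor organoids, and it passed in either gel. It read -1.39, -2.18 and -2.21 in normal Matrigel mice A, B and D and -2.93, -1.81 and -1.69 in normal collagen I mice A, B and C. It read -0.28, 0.51 and -0.48 in tumor Matrigel and -1.08, 0.46 and -0.17 in tumor collagen I. All 6 tumor arrays were above all 6 normal arrays. The tumor minus normal difference was 1.85 ± 0.46 in Matrigel (limma adjusted p = 0.00693) and 1.88 ± 0.46 in collagen I (adjusted p = 0.0293). The second probe gave 1.60 ± 0.31 and 1.27 ± 0.31 (adjusted p over probes = 0.00172 and 0.029). The gels did not separate Igfbp4 in tumors (-0.18 ± 0.46, adjusted p = 0.797) or in normal organoids (-0.22 ± 0.46, adjusted p = 0.95). The collagen I call was lost without any 1 of the 3 normal collagen I arrays (adjusted p = 0.106, 0.0611 and 0.0518 without A, B and C) and without tumor collagen I B (0.108) or C (0.0797). The batch 1 sample of normal Matrigel mouse A read 1.73 lower for Igfbp4 than its batch 2 sample, close to the size of the tissue difference.

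Igfbp5, a binding protein that PAPP-A also cleaves, was slightly lower in tumor organoids in Matrigel. It read 7.82, 7.61 and 7.66 in normal Matrigel mice A, B and D and 7.30, 6.76 and 7.29 in tumor Matrigel mice A, B and C, with no overlap. The difference was -0.58 ± 0.19 (adjusted p = 0.024). This call was lost without normal Matrigel A (adjusted p = 0.0644) or D (0.055) and without tumor Matrigel B (0.0834). In collagen I the levels were 7.53, 7.38 and 7.71 in normal and 7.77, 7.64 and 7.50 in tumor organoids, and the groups overlapped. Between the gels in tumors it was 0.52 ± 0.19 higher in collagen I, short of the threshold (adjusted p = 0.0607) though higher in 3 of 3 mice. It passed with mouse as a random replicate block (adjusted p = 0.0347), with quantile normalization (1.19, adjusted p = 0.00766) and in the authors' deposited log2 values (1.34, adjusted p = 0.00402). The second Igfbp5 probe was lower in tumor organoids in both gels, by -0.89 ± 0.24 each (adjusted p over probes = 0.0106 and 0.0487).

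Igfbp6, a binding protein with a preference for IGF2, was lower in tumor organoids in either gel. It read -2.82, -3.53 and -0.93 in normal Matrigel mice A, B and D, and -4.12, -2.79 and -2.66 in normal collagen I mice A, B and C. In tumors it read -4.41, -4.73 and -6.04 in Matrigel and -5.37, -5.61 and -6.05 in collagen I, and it was well above background on 2 and 1 of those 3 arrays, so it passed the filter on dim signal through the normal groups. No tumor array reached a normal array. The differences were -2.63 ± 0.65 in Matrigel (adjusted p = 0.00695) and -2.49 ± 0.65 in collagen I (adjusted p = 0.040). Only the groups where Igfbp6 is high let it through, so the filter and the direction of these calls are not independent. With no filter on dim signal the Matrigel call was kept and the collagen I call was lost (limma adjusted p = 0.0643). The Matrigel difference was 0.01 with normexp. The collagen I call was lost without normal collagen I B (adjusted p = 0.138) or C (0.153), without tumor Matrigel B (0.0539) and without tumor collagen I A, B or C (0.0556, 0.101 and 0.118).

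Igfbp2 and Igfbp7 did not pass in any of these comparisons. Igfbp2, another substrate of PAPP-A, had its highest mean in normal Matrigel, 3.93 ± 0.69, and its lowest in tumor collagen I, 1.96 ± 0.47 (SD, n = 3). Normal collagen I and tumor Matrigel lay between, at 3.23 ± 0.18 and 3.02 ± 0.98. In every mouse with both gels the collagen I value was the lower one, by -1.42 and -0.22 in normal mice A and B and by -0.89, -1.66 and -0.64 in tumor mice A, B and C. The tumor gel difference of -1.06 ± 0.48 had an adjusted p of 0.12. Between tissues the differences were -0.91 ± 0.48 in Matrigel (adjusted p = 0.132) and -1.27 ± 0.48 in collagen I (adjusted p = 0.136). Under quantile normalization the Matrigel difference passed (-1.36, adjusted p = 0.0195), as it did without tumor Matrigel B (-1.42, 0.0249), and the tumor gel difference passed without tumor Matrigel C (-1.53, 0.033).

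Igfbp7, which binds IGF weakly and is made by vascular and stromal cells, was 4.66 ± 0.37 in normal Matrigel and 5.58 ± 0.12 in normal collagen I, with no overlap. That difference of 0.92 ± 0.30 had an unadjusted p of 0.0106 and an adjusted p of 0.369. Tumor organoids gave 4.43 ± 0.08 in Matrigel and 4.95 ± 0.65 in collagen I, where mouse C at 5.69 stood above A and B at 4.46 and 4.70. Without tumor collagen I C, Igfbp7 was lower in tumor than in normal organoids in collagen I (-0.998, adjusted p = 0.028); with it the difference was -0.63 (0.235). Arrays of batch 1 give a scale for such differences. For normal Matrigel B the same RNA was hybridised in each batch, and the 10 genes moved by a median of 0.40. For mouse A, whose batch 1 and batch 2 samples are separate and not said to be 1 RNA, the median was 0.89, with the largest shift, -2.39, in Igf2.

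Markers of other cell types moved with the tissue difference. Organoids are epithelial fragments, and the luminal markers Krt8, Krt18, Krt19, Epcam, Cdh1 and Elf5 were well above background on all 12 arrays. Of 10 fibroblast markers, 10 were lower in tumor than in normal organoids when grown in Matrigel and 8 when grown in collagen I, with median differences of -2.88 and -2.45, where 25.9% and 5.0% of all genes passed as lower. Their summed level, in units of the array's 75th percentile, was 26.1 to 142 in normal Matrigel, 36.0 to 88.3 in normal collagen I, 5.51 to 6.48 in tumor Matrigel and 6.75 to 13.4 in tumor collagen I. Of 7 endothelial markers, 6 were lower in tumor organoids in each gel, and Tie1 was not well above background on any tumor array. Of 4 adipocyte markers 3 were lower in Matrigel and 1 in collagen I. Basal markers did not move together. Myh11, smooth muscle myosin, was lower in tumor organoids by -7.05 in Matrigel (adjusted p = 7.58e-06) and -5.80 in collagen I (3.57e-05), and the oxytocin receptor gene Oxtr by at least 19.4-fold in Matrigel (5.4e-05) and by -2.45 in collagen I (0.0161). Trp63 was higher by 0.94 and 1.20 (0.028 and 0.0395), and Krt5, Krt14 and Acta2 did not pass. Igf1, Igfbp3 and Igfbp6 were also lower in tumor organoids in each gel, though Igf1 did not pass in collagen I (limma adjusted p = 0.0613). Igfbp4 went the other way, higher in tumor organoids by 1.85 in Matrigel and 1.88 in collagen I. In these bulk samples fewer stromal cells and less RNA per cell cannot be told apart, and the part of these markers in the IGF differences was not tested. Of 7 leukocyte markers, 1 was higher in tumor organoids in Matrigel, Cd68 (4.16, limma adjusted p = 7.9e-05), and 1 was lower, Lyz2 (-2.37, 0.032). In collagen I 0 were higher and 3 lower, Ptprc, Lyz2 and Adgre1 (-3.59, -3.31 and -2.94), with Cd68 at 0.09. The part of the leukocyte markers was not tested either.

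Between the gels in tumors, the summed fibroblast level was higher on every collagen I array than on any Matrigel array, and 1 of the 10 markers, Pdgfra, passed (1.33, adjusted p = 0.0311). The median over the 10 was 0.80. Fap was not well above background on any tumor Matrigel array and on 1 of 3 tumor collagen I arrays. Of the 7 endothelial markers 2 passed as lower in collagen I, Emcn by -2.21 (adjusted p = 0.0235) and Tie1 (0.0414), which no tumor array had well above background, with a median of -1.09 over the 7. Their sums were 0.332 to 0.641 in tumor Matrigel and 0.190 to 0.346 in tumor collagen I. Cd68 differed by -2.92, lower in collagen I (adjusted p = 0.00211), the only leukocyte marker of 7 that passed. Of the 6 basal markers 1 passed, Oxtr, higher in collagen I by at least 3.24-fold (adjusted p = 0.00436), with no tumor Matrigel array well above background. The median over the 6 was 0.55, and Acta2 was lower in collagen I (-0.15, adjusted p = 0.559). Of the 6 luminal markers 2 were lower in collagen I. Over all genes 15.8% passed as higher and 12.1% as lower between the gels in tumors. The part of these markers in the gel differences of Pappa, Igf1 and Igfbp3 was not tested. Normal Matrigel D, the array highest in Igf1, Igf2 and Igfbp6 of its group, also had the highest fibroblast sum (142) and adipocyte sum (52.0), while Igfbp3, Pappa and Igfbp2 were the lowest of their group there (1.96, -2.55 and 3.49). The leukocyte sum was 2.21 to 27.8 in normal Matrigel and 39.5 to 60.6 in normal collagen I, where none of the 10 genes passed, and 3.36 to 7.68 over the 6 tumor arrays.

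**Figure D4:**
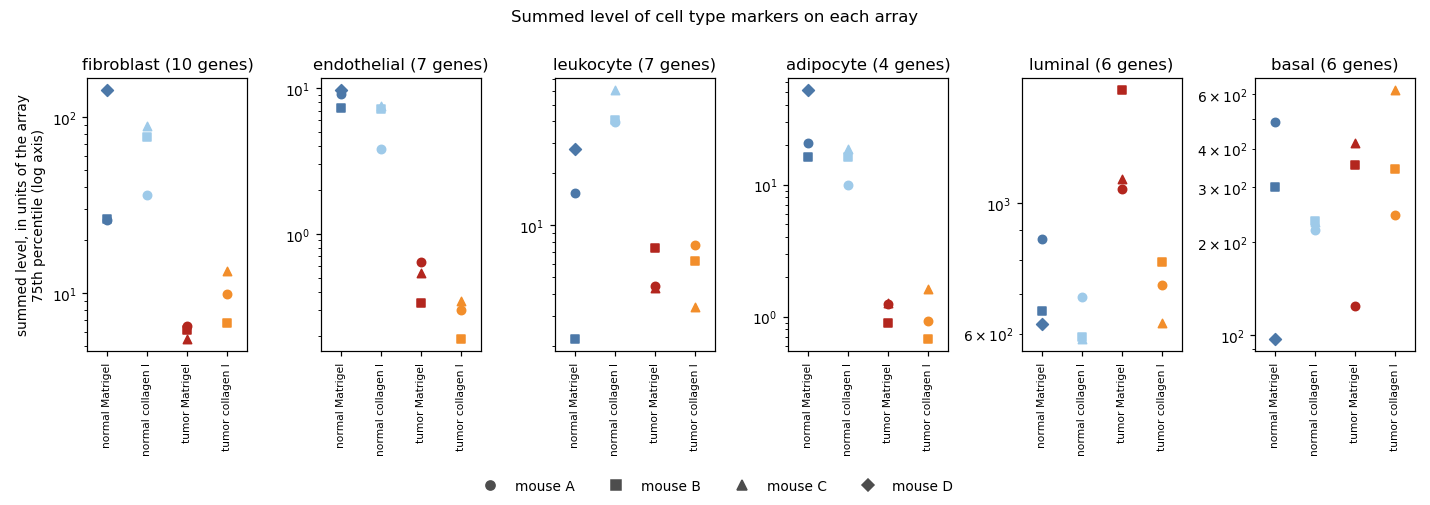
Summed level of the tested markers of 6 cell types on each of 12 arrays, in units of the array's 75th percentile on a log axis, by group; point shapes are mice. Fibroblast, endothelial and adipocyte sums of all 6 tumor arrays lie below those of all 6 normal arrays.

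Among the known partners of PAPP-A and other proteases of IGF binding proteins, 4 of 6 genes could be tested. Stc2, a stanniocalcin that binds and inhibits PAPP-A, was lower in collagen I than in Matrigel in tumors, by -1.24 ± 0.28 (limma adjusted p = 0.0102), with 3.44, 3.31 and 3.99 in Matrigel and 2.22, 2.49 and 2.31 in collagen I. The groups did not overlap. Stc2 ran opposite to Pappa here. It was the only 1 of the 4 to pass between the gels in tumors, where 27.9% of all genes passed. That call was lost with normexp (adjusted p = 0.064) and with slide as a fixed block (0.0665). In normal organoids Stc2 differed by 0.28 ± 0.28 (adjusted p = 0.866), and the difference between the tissues in the gel effect, -1.52 ± 0.39, did not pass (adjusted p = 0.0631).

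Stc1, the other stanniocalcin, was lower in tumor organoids, by -2.19 ± 0.31 in Matrigel (adjusted p = 0.0004) and -1.14 ± 0.31 in collagen I (adjusted p = 0.0459). With normexp these were -0.09 and -0.19. The collagen I call was lost without any 1 of 9 arrays: normal Matrigel B, normal collagen I B or C, and tumor A, B or C in collagen I (adjusted p = 0.0674, 0.142, 0.18, 0.0746, 0.076 and 0.138), and tumor Matrigel A, B or C (0.0562, 0.0592 and 0.0556). Htra1, a serine protease that cleaves binding proteins, was 0.88 ± 0.28 higher in tumor organoids in Matrigel (adjusted p = 0.0239). That call was lost under quantile normalization (0.23, adjusted p = 0.523) and without normal Matrigel D (0.0833) or tumor Matrigel B (0.0831) or C (0.0558). Pappa2 and Prg2 did not pass the filter.

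Of 15 further receptors, binding proteins and adaptors, 12 could be tested. The median over the 12 was -0.06 between the gels in tumors, 0.29 between the gels in normal organoids, 0.30 between tissues in Matrigel and 0.16 in collagen I. In Matrigel 5 were higher and 2 lower in tumor organoids, and in collagen I 1 was higher and 1 lower. The 7 of 12 called in Matrigel stand beside 51.6% of all genes, the 2 of 12 between the gels in tumors beside 27.9%, and the 2 of 12 in collagen I beside 8.64%. Counted here are Igf2bp1 in Matrigel and Igf2bp3 in collagen I, which passed the filter only through groups where they are high. Igf2bp2, an RNA-binding protein that binds Igf2 mRNA, was 3.17 ± 0.35 higher in tumor organoids in Matrigel (limma adjusted p = 0.000112) and 2.32 ± 0.35 in collagen I (adjusted p = 0.00207), the latter lost with slide as a fixed block (0.0967). Igf2bp1 was not well above background on any normal Matrigel array and was at least 4.83-fold higher in tumor Matrigel (adjusted p = 0.0015). It passed the filter only through the tumor groups, where it is high, so the filter and the direction of this call are not independent. The call was kept with no filter on dim signal. Igf2bp3 was well above background in normal collagen I alone, at -4.57, -5.77 and -5.98, and passed the filter only through that group. Its call in collagen I follows from the filter and is not read as a result.

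Ghr, the growth hormone receptor, was -1.56 ± 0.31 lower in tumor organoids in Matrigel (adjusted p = 0.00221), and Igfals, which encodes the acid-labile subunit of the serum IGF complex, was 1.25 ± 0.26 higher (adjusted p = 0.003). Between the gels in tumors 2 of the 12 passed, both lower in collagen I: Igf2r, which clears IGF2, by -0.80 ± 0.21 (adjusted p = 0.0189), and the adaptor Shc1 by -0.75 ± 0.18 (adjusted p = 0.0131). The Igf2r call was lost under quantile normalization (-0.50, adjusted p = 0.0665) and without tumor Matrigel B (0.0649) or tumor collagen I A (0.0583) or C (0.0524), and the Shc1 call without tumor collagen I A (0.0544). In normal organoids limma passed 0 of the 12 (1 at an unadjusted p under 0.05), with Igf2r at 0.26 ± 0.21 and Irs1, a docking protein of the receptor, at -0.16 ± 0.23 (adjusted p = 0.811 and 0.924). The gel effect differed between the tissues for 0 of the 12 (3 at an unadjusted p under 0.05), with -1.06 ± 0.30 for Igf2r (adjusted p = 0.0719) and 0.71 ± 0.33 for Irs1 (0.196). Of all 18272 genes, 1657 had an unadjusted p under 0.05 between the gels in normal organoids, and 4771 in the difference of gel effects.

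All 19 genes of the PI3K-AKT-mTOR list, the main route downstream of the receptor, were tested. In tumors 3 were higher and 3 lower in collagen I, with a median of -0.16. Between tissues in Matrigel 8 were higher and 3 lower in tumor organoids, with a median of 0.41. The 6 of 19 and 11 of 19 called are near the 27.9% and 51.6% of all genes. Between tissues in collagen I 0 of 19 passed by limma (2 at an unadjusted p under 0.05), with a median of 0.15. Between the gels in normal organoids 0 of 19 passed (1 at an unadjusted p under 0.05), with a median of 0.12. Of all 18272 genes, 4240 had an unadjusted p under 0.05 between tissues in collagen I, and 1657 between the gels in normal organoids. Eif4ebp1, which encodes the translation repressor 4E-BP1, was 6.13, 6.50 and 6.48 in tumor Matrigel and 4.77, 5.01 and 5.07 in tumor collagen I. It was -1.42 ± 0.20 lower in collagen I (adjusted p = 0.00194). In normal organoids it was 4.59, 4.18 and 3.97 in Matrigel and 4.43, 4.12 and 4.14 in collagen I (-0.02 ± 0.20, adjusted p = 0.994). The tumor gel effect minus the normal one was -1.40 ± 0.29 (adjusted p = 0.0376), a call lost without normal Matrigel B or D, normal collagen I A, B or C, tumor Matrigel B or tumor collagen I A (0.0785 to 0.111).

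Between tissues in Matrigel Eif4ebp1 was 2.12 ± 0.20 higher in tumor organoids (adjusted p = 5.09e-05), and Akt2 (0.91 ± 0.19), Pik3r2 (0.88 ± 0.19) and Foxo1 (0.70 ± 0.17) were higher too (adjusted p = 0.0031, 0.00383 and 0.00711). Under quantile normalization Pik3r2 and Foxo1 were not called (adjusted p = 0.0617 and 0.383). Foxo1, a transcription factor that AKT inactivates, was lower in collagen I in tumors (-1.02 ± 0.17, adjusted p = 0.00342). The kinase subunit genes Pik3r3 (1.1 ± 0.33) and Pik3ca (0.92 ± 0.28) were higher there (adjusted p = 0.031 and 0.0352), but their groups overlapped. The Pik3r3 call was lost without tumor Matrigel A (0.0651) or C (0.0892) or tumor collagen I A (0.112) or B (0.0687). The Pik3ca call was lost without any 1 of 8 arrays (0.0503 to 0.13), tumor Matrigel B among them (0.13). In collagen I the tissue differences were 0.72 ± 0.20 for Eif4ebp1 (adjusted p = 0.0519) and 0.03 ± 0.18 for Akt1, an AKT kinase (0.951).

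The 5 named genes whose levels followed Pappa most closely over the 12 arrays were Kif3b, a kinesin motor subunit (Pearson r = 0.917), Capza1, an actin capping protein (0.914), Psmd1, a proteasome subunit (0.90), Sgk3, a kinase activated downstream of PI3K (0.899), and Exd2, an exonuclease (0.894). These values share arrays, groups and scaling, and are a description. Like Pappa, Sgk3 was lowest in tumor Matrigel, at -4.23, -4.11 and -3.84, and highest in tumor collagen I, at -2.56, -2.59 and -1.97. Kif3b ranged only from -1.91 to -1.25. Under quantile normalization r was 0.896, 0.892, 0.815, 0.847 and 0.735, and Psmd1 and Exd2 fell to ranks 40 and 185. Of the other 9 genes of the axis, Igfbp5 (0.664), Igfbp3 (0.620) and Igf1 (0.576) had the highest r with Pappa, and Igf1r (-0.352) the lowest.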

How the data were processed

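Total RNA of 13 samples was labelled with Cy3 and hybridised to 1-colour Agilent mouse arrays, 14 in all, since normal Matrigel B has an array in each of 2 batches; normal Matrigel A has a sample in each. Per the file headers the authors extracted spots with Agilent Feature Extraction 9.5 (9.1 per the submitters' processing notes), and the deposited intensity used here is the processed signal, with background subtracted. A deposited table of log2 values served as an alternative. Its columns correlate with the scanner values at 0.992 to 1, have medians of 5.91 to 5.98 and share a maximum, and its centring is not known.

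The 12 batch 2 arrays were used. Between 52 and 139 outlier spots per array were left out, log2 signals were set against each array's 75th percentile, spots of a probe were averaged, and a probe was kept if all arrays of some group had it well above background (26606 of 41174). Where a gene had several such probes, the one of highest mean stood for it. Groups were compared with limma 3.58.1 in R 4.3.3 (lmFit, eBayes, 8 residual degrees of freedom) over 18272 genes, with Benjamini-Hochberg adjustment. Every adjusted p is from limma. An exact permutation test of 3 arrays against 3 cannot go below 0.1. RefSeq accessions named 55.7% of probes, and the others kept the files' names.

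Arrays with the same letter within a tissue are the same mouse, per the labels. Deviations from the group means correlated within mice at 0.24 and -0.243 in normal A and B and at -0.0583, 0.323 and 0.419 in tumor A, B and C. The fit without a mouse block is reported. The script was tested on simulated data for the tumor gel comparison with 18272 genes. Of genes changed by 4 log2 units 0.94 were called, and of those changed by 2 log2 units 0.75. Smaller changes were not simulated. The 10 genes and all gene lists were chosen with earlier results of these data known. The genes named from each list are up to 4 per comparison by smallest p among those that passed, or else the 2 with the highest level. The 5 genes most like Pappa are those with the highest Pearson r.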

Additional observations from a re-analysis of the deposited data

Results flagged for a closer look

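Pappa and Eif4ebp1, which encodes the translation repressor 4E-BP1, were flagged for the difference of their gel effects between the tissues in the main fit. For Pappa the flag is no test. The tumor gel difference of Pappa minus its normal one was 4.53 (log2), given as a description, since the gene was chosen on these tumor arrays. It was 1.57 with normexp and 2.26 with normexp and quantile normalization. That of Eif4ebp1 was -1.40 ± 0.29 (limma adjusted p = 0.0376). Over the alternatives its adjusted p was above the threshold of 0.05 in 15 of 30 (highest 0.153). Groups of 3 arrays were not searched for single arrays that stand apart.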

How the results depend on the processing

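Of 30 differences of the 10 genes that passed somewhere or belong to Pappa, 925 values under alternatives were computed: 811 kept their side of the threshold and direction, or for untested values moved by less than the spread between replicates. Another 36 lost a call, 44 gained one, 25 moved by more than that spread and 9 were counted as a change of direction. Values within a slide have no p, so for differences not called they were counted by size even where the sign changed. Such values were Igfbp2 between tissues in Matrigel (0.55 on slide 4) and Igfbp7 in collagen I (0.03 on slide 6). The 20 differences that passed nowhere gave 625 further values, 62 of them counted as a change of direction. The counts that follow include Pappa. Where they rest on tumor arrays, on which Pappa was chosen, its part in them is no test, and they are not counts of the other 9 genes. With normexp and the 75th percentile 0 of 10 genes passed between the gels in tumors and 0 in the difference of gel effects, and Igf1 between the gels in tumors was -0.54. Between tissues in Matrigel it gave 1.15 for Igf2 (adjusted p = 0.0439), -0.033 for Igf1r and 0.013 for Igfbp6. Its offset of 50 was added before scaling, and the tumor Matrigel arrays were the dimmest. The part of the offset in these values was not tested. For Igf1r, that tissue difference was -0.0060 with normexp and quantile normalization, -0.021 in the authors' deposited values and -0.036 with batch 1 arrays; in collagen I it was 0.086 without the probes named by a synonym, an alternative chosen after seeing the data. Leaving out 1 array at a time moved the Igf2 tissue difference in Matrigel from -1.23 (without normal Matrigel A) to 0.048 (without normal Matrigel D). A filter for probes above background on all 12 arrays left 1 call between the gels in tumors, 3 between tissues in Matrigel and 0 in the difference of gel effects, with fewer genes tested. Between tissues in collagen I, 5 genes passed with normexp and quantile normalization, 5 where each probe was tested on its own, and 0 with slide as a fixed block. In the difference of gel effects 3 passed with batch 1 arrays, with the mean of both batches, with slide as a random block and with array weights, and 2 with a variance trend. With mouse as a replicate block, 3 passed there with a random block and 0 with a fixed block, where 0 of all genes passed; the fixed block cannot estimate differences between tissues. Array weights gave 3 calls between the gels in normal organoids (Pappa, Igf1r and Igfbp7). Leaving out 1 array at a time gave 2 to 4 calls between the gels in tumors, 0 in normal organoids and 5 to 6 between tissues in Matrigel. It gave 1 to 4 in collagen I and 0 to 2 in the difference of gel effects. Over all genes the same fits called, in that order, 2744 to 5413, 4 to 23, 7402 to 9723, 754 to 1873 and 12 to 2084. Most other counts here stand without the number over all genes and are not read as a result about the 10 genes. In collagen I only Igfbp3 stayed called, 1 gene, without normal collagen I B or C or tumor collagen I B. In the difference of gel effects 0 were called without normal collagen I A or B, and 2 without normal Matrigel A. The cause of these changes was not tested. The 21 calls among pathway genes were lost in 98 of 635 values, and 1 changed sign. Differences within a slide give no count, and a fit of only the groups compared gives no difference of gel effects. Values near background, as for Igf1, Igf2 and Igfbp6 in tumors, are limited by signal rather than by the number of arrays alone.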
